A study of Mus musculus with 12 samples.

Results

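The 8 genes described here are markers of pyramidal neurons in the CA2 and CA3 fields of the hippocampus. Rgs14, Amigo2, Pcp4, Necab2, Map3k15 and Ptpn5 were taken as CA2 markers, and Bok and Iyd as CA3 markers. They were chosen by gene symbol, and all 8 were listed among 29407 genes measured in the dorsal and 29146 genes measured in the ventral hippocampus, of which 26787 were in both. RNA came from macrodissected dorsal or ventral hippocampus of adult mice, and libraries read 3′ tags, that is, short reads from near the end of polyadenylated transcripts. Animals of every group were homozygous for a floxed Tet3 allele (Tet3 fl/fl). The knockout animals (Tet3fl/fl; Camk2a-CreERT2, called cKO) also carried 1 copy of a tamoxifen-inducible Cre recombinase driven by the Camk2a promoter, and the controls carried no Cre. The same tamoxifen protocol is given for both genotypes, with 50 mg/kg injected 2 times a day from 6 weeks of age for 5 days, a break of 7 days and 5 further days. Controls and cKO were each sampled from both regions, with 3 samples in each of the 4 groups. The Camk2a promoter acts in excitatory forebrain neurons, so glia, interneurons and other cells of the dissected tissue would keep intact Tet3. The Cre line had a B6;129S6 background and the floxed line a C57BL/6N background.

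CA2 is a short stretch of pyramidal neurons between CA3 and CA1. It is known for weak long-term potentiation at the synapses it receives from CA3 and for a part in social memory. CA3 pyramidal neurons receive the mossy fibres of the dentate gyrus and excite one another and CA1. Several CA2 markers are proteins that limit synaptic plasticity: RGS14 restrains G-protein and mitogen-activated kinase signalling, PCP4 (PEP-19) tunes calmodulin, and STEP, the product of Ptpn5, dephosphorylates glutamate receptor subunits and kinases. TET3 oxidises 5-methylcytosine, which in mammals lies mostly at CG dinucleotides.

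Each sample held 5.12 to 15.9 M counts (median 9.07 M) after its sequencing runs were summed. CPM of a sample are counts scaled to its library total as adjusted by edgeR's TMM factors. CPM of a single run are scaled to the unadjusted run total. Tet3 itself was at 29.9, 37.2 and 33.8 CPM in the dorsal controls and 32.3, 41.8 and 40.4 CPM in dorsal cKO. Ventral controls held 34.7, 30.3 and 23.6 CPM and ventral cKO samples 35.0, 25.3 and 32.2 CPM. A 3′ tag can lie outside the deleted part of the gene, so these levels do not check the deletion. On the first principal component of all genes (26.8% of variance) the dorsal samples lay at -24.2 to -15.2 and the ventral controls at 25.3 to 32.5. Ventral cKO samples 40, 63 and 64 lay nearer the dorsal samples, at 7.50, 20.6 and 12.4. Nothing in the labels states that the samples of a group are separate animals, so the spread between them may be partly technical.

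Bok, Necab2 and Iyd are the members that passed the test between dorsal and ventral hippocampus, and the 250 bases before their RefSeq start sites (GRCm38.p6) are shown for that reason, with each CG in capitals. CG reads the same on both strands. No methylation was measured in these samples, so the letters are a description only.
Bok: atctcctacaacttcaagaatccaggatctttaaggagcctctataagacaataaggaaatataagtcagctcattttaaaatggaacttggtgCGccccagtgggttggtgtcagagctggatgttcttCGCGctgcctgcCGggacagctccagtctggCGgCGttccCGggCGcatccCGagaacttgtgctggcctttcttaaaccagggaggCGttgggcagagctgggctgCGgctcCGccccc
Necab2: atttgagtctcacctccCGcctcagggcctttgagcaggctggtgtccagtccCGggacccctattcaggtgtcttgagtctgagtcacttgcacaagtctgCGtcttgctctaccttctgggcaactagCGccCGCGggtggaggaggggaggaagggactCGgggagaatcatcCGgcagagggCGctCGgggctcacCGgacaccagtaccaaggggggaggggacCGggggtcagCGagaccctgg
Iyd: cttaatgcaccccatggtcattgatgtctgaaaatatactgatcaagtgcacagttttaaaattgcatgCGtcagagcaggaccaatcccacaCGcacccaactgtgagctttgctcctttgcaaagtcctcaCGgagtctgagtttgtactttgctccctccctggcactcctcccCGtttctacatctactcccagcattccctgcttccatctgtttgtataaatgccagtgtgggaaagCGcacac
The Bok window (chr1:93685325-93685574, plus strand) held 12 CG, the Necab2 window (chr8:119446469-119446718, plus strand) 13 and the Iyd window (chr10:3540024-3540273, plus strand) 5. The median over 32851 RefSeq windows of this length was 6 CG, and 92.1% of them held at least 1. At least as many CG as in the Bok window were found in 33.5% of all windows, as in the Necab2 window in 31.5%, and as in the Iyd window in 55.6%.

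Along the hippocampal axis the markers did not move as a block. Averaged over both genotypes, Necab2 was 1.89-fold higher in the ventral than in the dorsal hippocampus, Bok was 1.57-fold lower and Iyd was 2.86-fold lower. Rgs14 was 1.37-fold lower and missed the threshold, and Amigo2, Pcp4 and Ptpn5 had fitted differences between -0.10 and 0.02 on the log2 scale. Thus 3 of 7 tested members passed in edgeR's quasi-likelihood test with Benjamini-Hochberg adjustment over all genes, where 14.1% of all 16414 tested genes passed at an adjusted p under 0.05. Of these members 1 was higher, beside 6.67% of all genes, and 2 were lower, beside 7.43%. The median log2 fold change was -0.10 over the members and 0.00 over all genes. In the controls alone 2 members passed, Necab2 higher and Rgs14 lower, where 7.86% of all genes passed (3.48% higher, 4.38% lower). In cKO alone Necab2 passed as higher, where 6.16% of all genes passed in either direction and 2.83% as higher. The tissue pieces hold many cell types, so fewer cells of a type and less RNA per cell cannot be told apart in any of these values.

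No member passed the test between cKO and control in either region. In edgeR's quasi-likelihood test 0 of 7 members passed in the dorsal hippocampus, where 0.0% of 15692 genes passed, and 0 of 6 in the ventral hippocampus, where 0.0% of 15102 genes passed. At an unadjusted p under 0.05 there were 2 dorsal members (Bok and Rgs14), against 4.9% of all genes, and 1 ventral member (Rgs14), against 7.23% of all genes. DESeq2 and limma-voom called no member either, while over all genes DESeq2 called 22 in the dorsal and 9 in the ventral hippocampus and limma-voom called 0 in both. In the dorsal comparison DESeq2 gave Iyd, Necab2, Pcp4 and Amigo2 no adjusted p, so it could not have called them. The 3 samples of a group were nevertheless apart for some members. Dorsal cKO and dorsal control did not overlap for Rgs14, Necab2 and Bok, which is 3 of 7 tested members where 10.1% of all genes did not overlap. Rgs14 was lower in cKO, as were 4.68% of all genes, and Necab2 and Bok were higher, as were 5.4%. Ventral cKO and ventral control did not overlap for Necab2, which was lower in cKO, 1 of 6 members beside 6.48% of all genes. The median log2 fold change was 0.21 over the dorsal members and -0.06 over the ventral members, beside 0.00 and -0.00 over all genes.

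**Figure D1:**
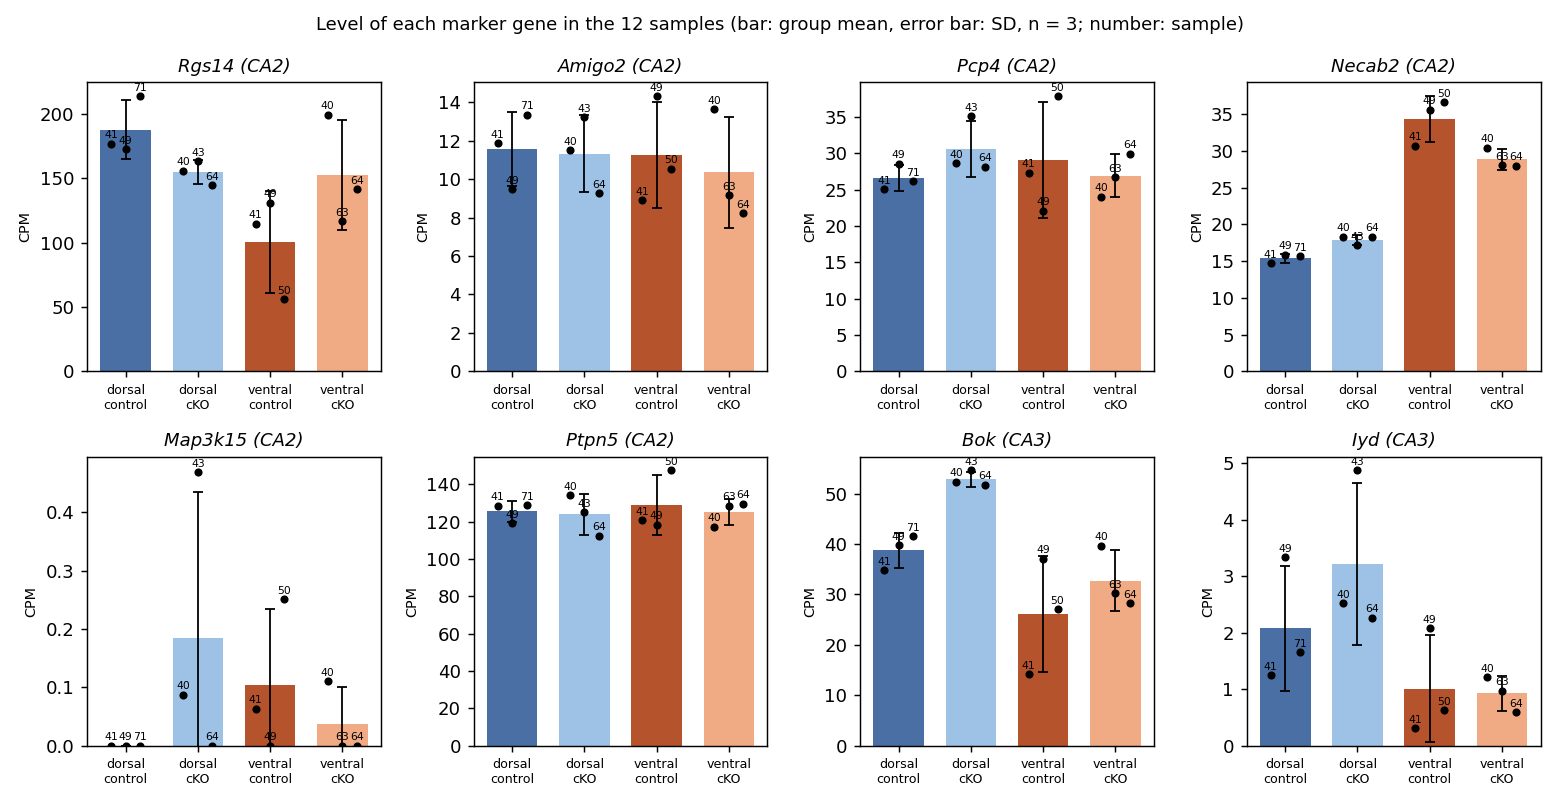
CPM of each marker gene (y axis) by group (x axis), with black points for the 12 samples and their numbers, bars for the group mean and error bars for the SD (n = 3). Necab2 steps up from 15.4 CPM in the dorsal controls to 34.3 CPM in the ventral controls, Bok and Iyd are highest in dorsal cKO, and Ptpn5 stays between 112 and 147 CPM.

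Rgs14 (ENSMUSG00000052087, chr13:55369732-55384687, plus strand, GRCm38) encodes a regulator of G-protein signalling that accelerates GTP hydrolysis by inhibitory G alpha subunits and is concentrated in CA2. Its level was 177, 173 and 214 CPM in dorsal controls 41, 49 and 71, and 156, 163 and 145 CPM in dorsal cKO 40, 43 and 64. All 3 dorsal cKO samples were below all 3 dorsal controls. Ventral controls 41, 49 and 50 held 115, 131 and 55.9 CPM, and ventral cKO 40, 63 and 64 held 199.5, 117 and 142 CPM. There the groups overlapped, since cKO 63 was below control 49, and control 50 was the lowest and cKO 40 the highest sample. The group means were 188 ± 22.6, 155 ± 9.33, 101 ± 39.6 and 153 ± 42.5 CPM (SD, n = 3) in dorsal control, dorsal cKO, ventral control and ventral cKO.

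The fitted log2 fold change of Rgs14 in dorsal cKO over control was -0.28 ± 0.09 (SE; edgeR's quasi-likelihood test with Benjamini-Hochberg adjustment, adjusted p = 0.880), and it was -0.17 without dorsal control 71. In the ventral hippocampus it was 0.60 ± 0.26 (edgeR's test, adjusted p = 0.674), and leaving out ventral control 50 gave 0.31 and leaving out ventral cKO 40 gave 0.36. The difference of these genotype effects, ventral minus dorsal, was 0.88 ± 0.31 on the log2 scale (edgeR's interaction contrast, adjusted p = 0.487). By edgeR's test 0 of 7 members passed for this contrast, where 0.0% of all genes passed, while 2 members (Rgs14 and Necab2) and 7.96% of all genes had an unadjusted p under 0.05. DESeq2 and limma-voom called no member for it either, and DESeq2 called 34 of all genes. However, DESeq2 gave an adjusted p for Rgs14 and Ptpn5 alone among the members, so it could not have called Necab2 or the others.

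Rgs14 differed along the axis in the controls and not detectably in cKO. In the controls it was 1.86-fold lower in the ventral hippocampus (log2 fold change -0.90 ± 0.22, edgeR's quasi-likelihood test, adjusted p = 0.0179), and all ventral controls were below all dorsal controls, as for 13.2% of all genes. In cKO the log2 fold change was -0.02 ± 0.22 (edgeR's test, adjusted p = 0.977), and the samples overlapped. The test of the difference between these values is the interaction above, which did not pass. The call in the controls was lost without dorsal control 71 (log2 fold change -0.79, edgeR adjusted p = 0.0951). Averaged over genotypes the difference was -0.46 ± 0.16 (edgeR adjusted p = 0.0620), and -0.58 to -0.32 with single samples left out. It passed once ventral cKO 40 (-0.58, adjusted p = 0.0205) or ventral control 49 (-0.57, adjusted p = 0.0186) was left out (the other 10 omissions did not pass), and with limma-voom (-0.51, adjusted p = 0.0383).

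The lower dorsal Rgs14 level in cKO was present in each sequencing run taken alone. In run 1 dorsal cKO samples held 130 to 152 CPM and controls 164 to 213 CPM. In run 2, which lacks cKO 64, they held 162 to 172 and 175 to 207 CPM. In run 3 they held 156 to 162 and 174 to 209.5 CPM, so no run showed an overlap. The share of all genes without overlap within a run was not counted, so such separations cannot be set against it for any member. The ventral groups overlapped in all 3 runs. In the authors' deposited table dorsal Rgs14 had a log2 fold change of -0.27 with a false discovery rate of 0.0190, and ventral Rgs14 0.55 with 0.246. Its columns hold each run separately and do not state how the authors' fit handled the runs. That table marks all 8 members as not changed in both regions. Repeat runs of 1 sample are not separate replicates, and with each sample counted once the dorsal edgeR adjusted p was the 0.880 given above.

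Ptpn5 (ENSMUSG00000030854, chr7:47077795-47133684, minus strand, GRCm38) encodes STEP, a striatal-enriched tyrosine phosphatase whose action promotes the removal of glutamate receptors from synapses. Dorsal controls 41, 49 and 71 held 128, 119 and 129 CPM, and dorsal cKO 40, 43 and 64 held 134, 125 and 112 CPM. Ventral controls 41, 49 and 50 held 121, 118 and 147 CPM, and ventral cKO 40, 63 and 64 held 117, 128 and 129.6 CPM. Every pair of groups overlapped. The fitted log2 differences were -0.01 ± 0.09 (dorsal cKO over control), -0.04 ± 0.10 (ventral cKO over control) and 0.02 ± 0.07 (ventral over dorsal, edgeR's test, adjusted p = 0.869), the smallest SEs among the members in the ventral genotype and axis comparisons. Ptpn5 overlaps an antisense gene, Gm14377, and a microRNA gene, Mir7056. Whether counting used the strand is not given in the sources used here. Reads of overlapping genes cannot be told apart.

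Genes tied to these signalling members were read from the same fits. Of 8 substrates and relatives of the STEP phosphatase 7 were tested, and 2 were higher in the ventral hippocampus (6.67% of all genes) and 0 lower (7.43%) by edgeR's test. Of 12 tested partners of RGS14, 1 was higher and 1 lower, and the lowest p was that of Rap1a, a small GTPase, at -0.37 ± 0.08 (edgeR adjusted p = 0.00245). Between genotypes 0 of either list passed by edgeR's test in either region, and at an unadjusted p under 0.05 there were 0 of 7 STEP genes in both regions and 3 dorsal and 1 ventral of 12 RGS14 partners. The shares over all genes were 4.9% in the dorsal and 7.23% in the ventral hippocampus.

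Pcp4 (ENSMUSG00000090223, chr16:96467606-96525793, plus strand, GRCm38) encodes a small calmodulin-binding protein found in CA2 and also in other brain regions. Its levels were 25.1, 28.6 and 26.2 CPM in the dorsal controls and 28.6, 35.1 and 28.1 CPM in dorsal cKO. Ventral controls held 27.3, 22.1 and 37.9 CPM and ventral cKO samples 24.0, 26.7 and 30.0 CPM. Dorsal cKO 64 was just below dorsal control 49, so the dorsal groups overlapped by a small margin, and ventral control 50 was the highest sample. That dorsal order depended on the TMM adjustment. By unadjusted totals dorsal cKO 64 (149 of 5.12 M counts) was just above dorsal control 49 (265 of 9.16 M). Dorsal cKO 40 (328 of 11.4 M) was then just below control 49, so the groups still overlapped. Within run 1 (29.2 to 35.9 against 26.8 to 29.1 CPM) dorsal cKO was above control without overlap, by a small margin. In run 2, which lacks dorsal cKO 64, it was also above without overlap (35.6 to 38.0 against 23.3 to 31.0 CPM). In run 3 the groups overlapped. The share of all genes apart within a run was not counted. The log2 fold change was 0.21 ± 0.12 in the dorsal comparison (edgeR's test, adjusted p = 0.968) and -0.12 ± 0.18 in the ventral comparison. Between regions it was -0.03 ± 0.11 (edgeR adjusted p = 0.886). Pcp4 shares part of its span with Igsf5 on the same strand. Of 6 tested relatives of Pcp4 and calmodulin genes, 1 was higher (6.67% of all genes) and 1 lower (7.43%) in the ventral hippocampus by edgeR's test. Gap43, which binds calmodulin in growing axons, had the lowest p, at 0.77 ± 0.12 (edgeR adjusted p = 0.00025).

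Necab2 (ENSMUSG00000031837, chr8:119446719-119472640, plus strand, GRCm38) encodes a neuronal calcium-binding protein with EF hands. It was at 14.7, 15.8 and 15.7 CPM in the dorsal controls and 18.3, 17.2 and 18.3 CPM in dorsal cKO. Ventral controls held 30.7, 35.6 and 36.6 CPM, and ventral cKO samples held 30.5, 28.1 and 28.0 CPM. The order of the groups was ventral control, ventral cKO, dorsal cKO and dorsal control, and no neighbours in that order overlapped. The ventral groups were apart by a small margin, with control 41 at 30.7 CPM and cKO 40 at 30.5 CPM. The share of all genes with all 4 groups apart was not counted. The means were 34.3 ± 3.15, 28.8 ± 1.40, 17.9 ± 0.669 and 15.4 ± 0.609 CPM in the same order (SD, n = 3).

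Necab2 passed every test between regions. The ventral over dorsal log2 fold change was 1.15 ± 0.11 in the controls (edgeR's quasi-likelihood test, adjusted p = 5.67e-06), 0.69 ± 0.11 in cKO (adjusted p = 0.000939) and 0.92 ± 0.08 averaged over genotypes (adjusted p = 3.61e-07). All 6 ventral samples were above all 6 dorsal samples, as for 3.62% of all genes. Within the controls and within cKO such a separation held for 12.5% of all genes each. The averaged value was 0.89 to 0.96 with any single sample left out. Between genotypes it was 0.22 ± 0.13 in the dorsal hippocampus (edgeR's test, adjusted p = 0.968) and -0.24 ± 0.12 in the ventral hippocampus (adjusted p = 0.707). The difference of these effects was -0.46 ± 0.16 (edgeR's interaction contrast, adjusted p = 0.482). So cKO samples lay above the controls in the dorsal and below them in the ventral hippocampus, without passing a test across all genes.

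The separation of Necab2 by genotype did not hold in every run. Dorsal cKO was above control without overlap in run 3 (20.3 to 21.8 against 14.6 to 19.6 CPM) and overlapped in runs 1 and 2. The dorsal log2 fold change was 0.033 in run 1 and 0.26 in run 3. Ventral cKO was below control without overlap in run 2 (22.5 to 24.8 against 24.9 to 35.4 CPM) and overlapped in runs 1 and 3. The ventral over dorsal difference was 1.21 in run 1 and 0.87 in run 3, and both passed (edgeR adjusted p = 7.91e-06 and 4.75e-06).

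**Figure D2:**
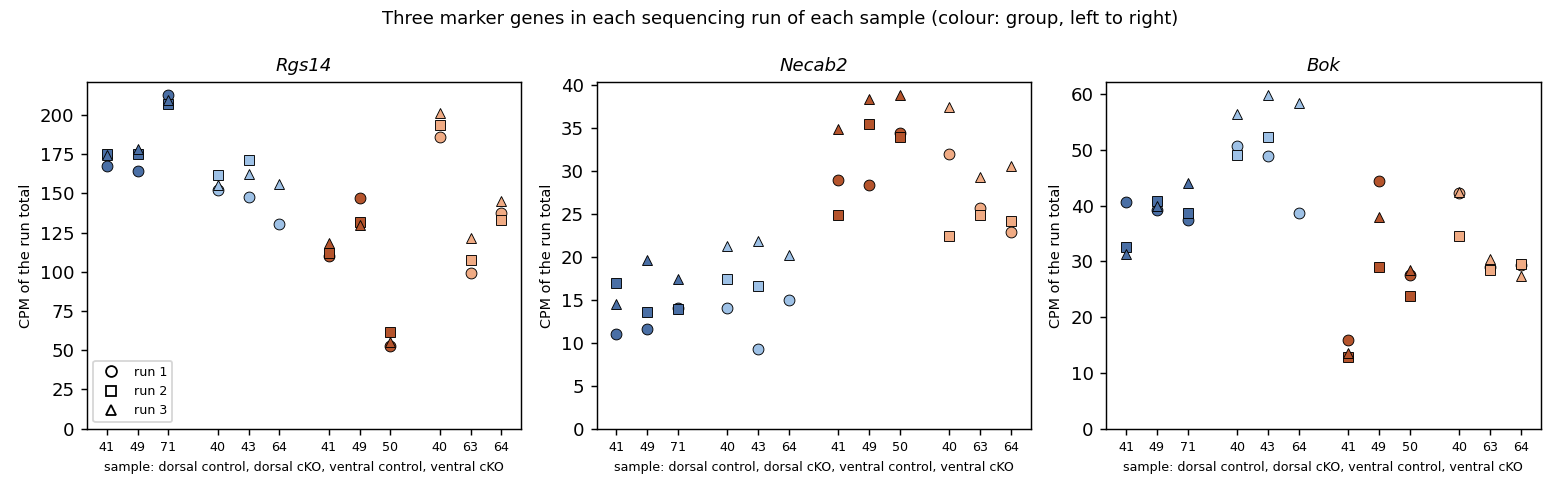
CPM of the run total (y axis) for Rgs14, Necab2 and Bok in each of the 12 samples (x axis), with a circle, square and triangle for runs 1, 2 and 3 and a colour for each group. Dorsal cKO Rgs14 is below control in all 3 runs, while Necab2 is without overlap between the dorsal genotypes in run 3 alone.

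Amigo2 (ENSMUSG00000048218, chr15:97244125-97247287, minus strand, GRCm38) encodes a leucine-rich-repeat adhesion protein of the neuronal surface. Its levels were 11.9, 9.49 and 13.4 CPM in the dorsal controls and 11.5, 13.2 and 9.26 CPM in dorsal cKO. The ventral controls held 8.91, 14.3 and 10.5 CPM and ventral cKO 13.6, 9.17 and 8.24 CPM. The 4 groups overlapped, with means between 10.3 and 11.6 CPM. The log2 differences were -0.01 ± 0.18 (dorsal genotype), -0.09 ± 0.24 (ventral genotype) and -0.10 ± 0.15 (ventral over dorsal, edgeR's test, adjusted p = 0.737). Amigo2 overlaps Pced1b on the opposite strand.

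Map3k15 (ENSMUSG00000031303, chrX:159988433-160123351, plus strand, GRCm38), a kinase upstream of stress-activated signalling, was at the limit of detection. Its counts were 0, 0 and 0 for the dorsal controls, 1, 5 and 0 for dorsal cKO, 1, 0 and 2 for the ventral controls and 1, 0 and 0 for ventral cKO. These are 10 counts in all, and 7 of 12 samples had none. A count of 0 allows up to 3 counts, for counting error only. That is 0.189 to 0.586 CPM of the unscaled total, depending on the sample. Map3k15 did not pass the filter on low counts in any comparison, so it has no test, and the tested members number at most 7.

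Bok (ENSMUSG00000026278, chr1:93685660-93695764, plus strand, GRCm38) encodes a BCL-2 family protein related to the cell death effectors BAX and BAK, and is a marker of CA3 pyramidal neurons. Its levels were 34.8, 39.8 and 41.6 CPM in dorsal controls 41, 49 and 71 and 52.3, 54.6 and 51.8 CPM in dorsal cKO 40, 43 and 64. All 3 dorsal cKO samples were above all 3 dorsal controls and above every ventral sample. The ventral controls 41, 49 and 50 held 14.2, 37.1 and 27.1 CPM and ventral cKO 40, 63 and 64 held 39.7, 30.3 and 28.3 CPM. The ventral groups overlapped, and ventral control 41 was the lowest of all samples.

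The dorsal cKO over control difference of Bok was 1.37-fold, with a log2 fold change of 0.45 ± 0.10 (edgeR's quasi-likelihood test with Benjamini-Hochberg adjustment, adjusted p = 0.582). It had the 9th lowest p of 15692 genes, and the lowest adjusted p over all those genes was also 0.582. Leaving out single samples gave 0.38 to 0.51. Bok passed when no filter on low counts was used (edgeR adjusted p = 0.0235), a setting that also called other dorsal genes, as given below. It did not pass with DESeq2 (adjusted p = 0.0604), limma-voom (adjusted p = 0.64) or a filter at a mean of 10 counts (edgeR adjusted p = 0.592). In run 1 the dorsal groups overlapped (38.7 to 50.7 CPM in cKO and 37.5 to 40.6 CPM in control, log2 fold change 0.22), while in run 2 (49.04 to 52.4 against 32.7 to 40.9 CPM) and run 3 (56.4 to 59.8 against 31.3 to 44.1 CPM, log2 fold change 0.56) they did not. In the authors' deposited table dorsal Bok had a log2 fold change of 0.43 and a false discovery rate of 0.000755. The ventral log2 fold change was 0.37 ± 0.28 (edgeR's test, adjusted p = 0.836), and it was 0.037 without ventral control 41 and 0.71 without ventral control 49.

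Between regions Bok was lower in the ventral hippocampus, with a log2 fold change of -0.65 ± 0.16 averaged over genotypes (edgeR's test, adjusted p = 0.0103). This passed with every single sample left out, with values of -0.82 to -0.48. In the controls the value was -0.61 ± 0.23 (edgeR adjusted p = 0.118), and it was -0.28 without ventral control 41 and -0.96 (adjusted p = 0.00792) without ventral control 49. In cKO it was -0.69 ± 0.22 (edgeR adjusted p = 0.0842), and all ventral cKO samples were below all dorsal cKO samples, as for 12.2% of all genes. The summed level of 9 dentate granule cell markers ranged over 199 to 256 CPM in the dorsal and 127 to 243.5 CPM in the ventral samples, and its part in the Bok difference was not tested.

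Iyd (ENSMUSG00000019762, chr10:3540240-3554877, plus strand, GRCm38) encodes iodotyrosine deiodinase, which recycles iodide in the thyroid, and serves as a CA3 marker in the hippocampus. It was a low transcript, with 11, 31 and 15 counts (1.25, 3.34 and 1.66 CPM) in the dorsal controls and 29, 52 and 12 counts (2.53, 4.88 and 2.27 CPM) in dorsal cKO. The ventral controls had 5, 15 and 5 counts (0.316, 2.09 and 0.627 CPM) and ventral cKO 11, 7 and 4 counts (1.22, 0.973 and 0.599 CPM). Both genotype comparisons overlapped, and all ventral cKO samples were below all dorsal cKO samples, as for 12.2% of all genes. Averaged over genotypes the ventral over dorsal log2 fold change was -1.52 ± 0.40 (edgeR's quasi-likelihood test, adjusted p = 0.0156). That call was lost without dorsal cKO 43 (-1.28, edgeR adjusted p = 0.0576) or dorsal control 49 (-1.26, adjusted p = 0.0595), the samples with the most counts. The dorsal genotype difference was 0.66 ± 0.39 (edgeR's test, adjusted p = 0.968), and it was 0.21 without dorsal cKO 43 and 1.17 without dorsal control 49. Within run 1 dorsal cKO held 3.16 to 5.12 CPM and control 0.913 to 1.88 CPM, and in runs 2 and 3 the groups overlapped. In the ventral samples Iyd did not pass the filter on low counts for a genotype test.

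**Figure D3:**
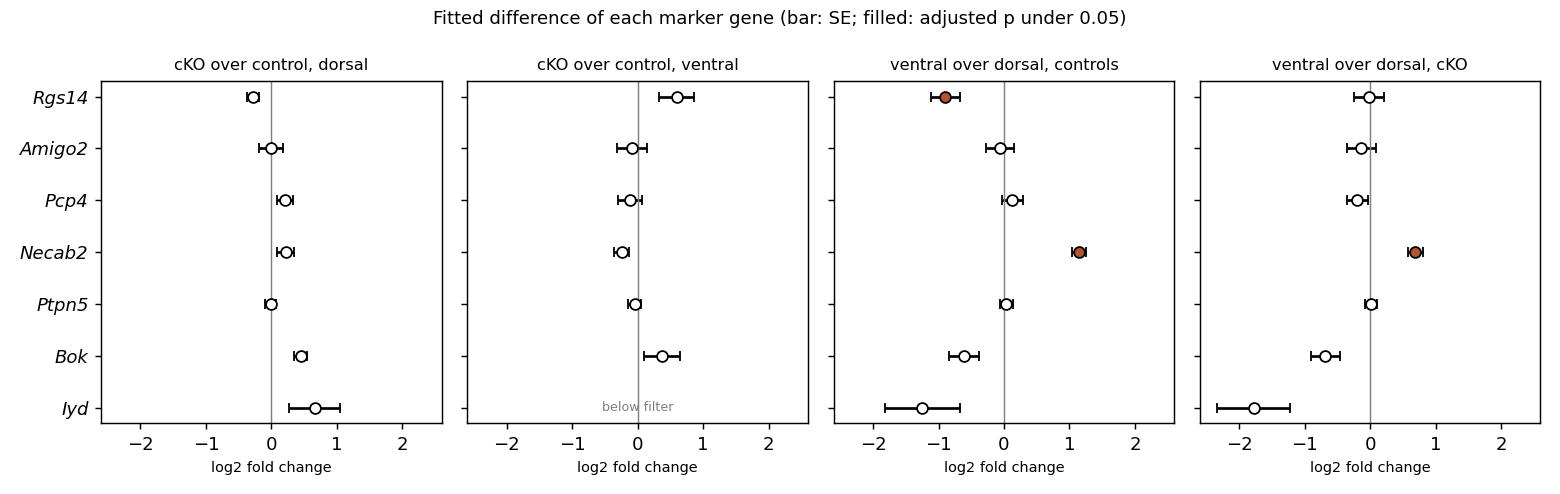
Fitted log2 fold change (x axis) of the 7 tested members in 4 comparisons, with bars for the SE and filled points for a Benjamini-Hochberg adjusted p under 0.05. No member is filled in the genotype panels, Necab2 and Rgs14 are filled in the controls, and Necab2 is filled in cKO.

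Other genes known from these fields were read from the same fits. Of 9 other CA2 markers, 3 were lower in the ventral hippocampus (7.43% of all genes) and 0 higher (6.67%) by edgeR's test, with a median log2 fold change of -0.16 beside 0.00 over all genes. Those 3 were Cacng5, an auxiliary subunit of AMPA receptors, Acan, the core protein of perineuronal nets, and Avpr1b, the vasopressin receptor linked to social memory. Avpr1b is named because the count is small, after its value was seen. Cacng5 was at 18.1 ± 2.45 and 16.1 ± 1.21 CPM in dorsal control and cKO and at 7.23 ± 0.382 and 7.25 ± 0.451 CPM in ventral control and cKO (SD, n = 3). Its log2 fold change was -1.24 ± 0.10 (edgeR adjusted p = 2.79e-07). Acan was at -1.23 ± 0.21 (edgeR adjusted p = 0.000486) and Avpr1b at -1.998 ± 0.46 (adjusted p = 0.00684), the latter on 8 counts in each ventral group. Necab2 thus moved the other way along the axis from the CA2 markers that passed. Between genotypes 0 of 9 passed in the dorsal and 0 of 8 in the ventral hippocampus by edgeR's test, and 0 had an unadjusted p under 0.05. The lowest p were those of Ntf3, a neurotrophin (0.55 ± 0.33), and Stard5, a sterol carrier (0.13 ± 0.11), in the dorsal comparison. In the ventral comparison they were those of Stard5 (0.19 ± 0.13) and Nr3c2, the mineralocorticoid receptor (0.23 ± 0.24), which was at -0.021 without ventral control 50.

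The other CA3 markers parted in both directions. Of 11, 5 were higher (6.67% of all genes) and 3 lower (7.43%) in the ventral hippocampus by edgeR's test, with a median log2 fold change of 0.31 over both genotypes and -0.11 in the controls alone. Col6a1, a collagen chain, rose by 1.63 ± 0.18 on the log2 scale (edgeR adjusted p = 6.00e-06) and Nnat, a small membrane protein of developing neurons, by 1.48 ± 0.16 (adjusted p = 6.48e-06). Mas1, an angiotensin peptide receptor (0.88 ± 0.11), Socs2, a suppressor of cytokine signalling (0.83 ± 0.12), and the kainate receptor gene Grik4 (0.39 ± 0.10) were the others that rose. Cdh24, a cadherin (-1.42 ± 0.35), Homer3, a postsynaptic scaffold (-0.53 ± 0.14), and Dkk3, a secreted relative of Wnt inhibitors (-0.33 ± 0.06), fell, as Bok and Iyd did. Mas1, Grik4, Cdh24, Homer3 and Dkk3 are named because the counts are small, after their values were seen. Between genotypes 0 of 11 passed in the dorsal and 0 of 10 in the ventral hippocampus by edgeR's test, with 3 and 1 at an unadjusted p under 0.05, beside 4.9% and 7.23% of all genes. The dorsal 3 were Nectin3, the adhesion protein of CA3 synapses (0.37 ± 0.11, edgeR adjusted p = 0.798), Socs2 (0.44 ± 0.17) and Grik4 (0.32 ± 0.14), each higher in cKO. The ventral gene was Socs2 (-0.30 ± 0.12, edgeR adjusted p = 0.633), and Coch was at -0.68 ± 0.45.

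**Figure D4:**
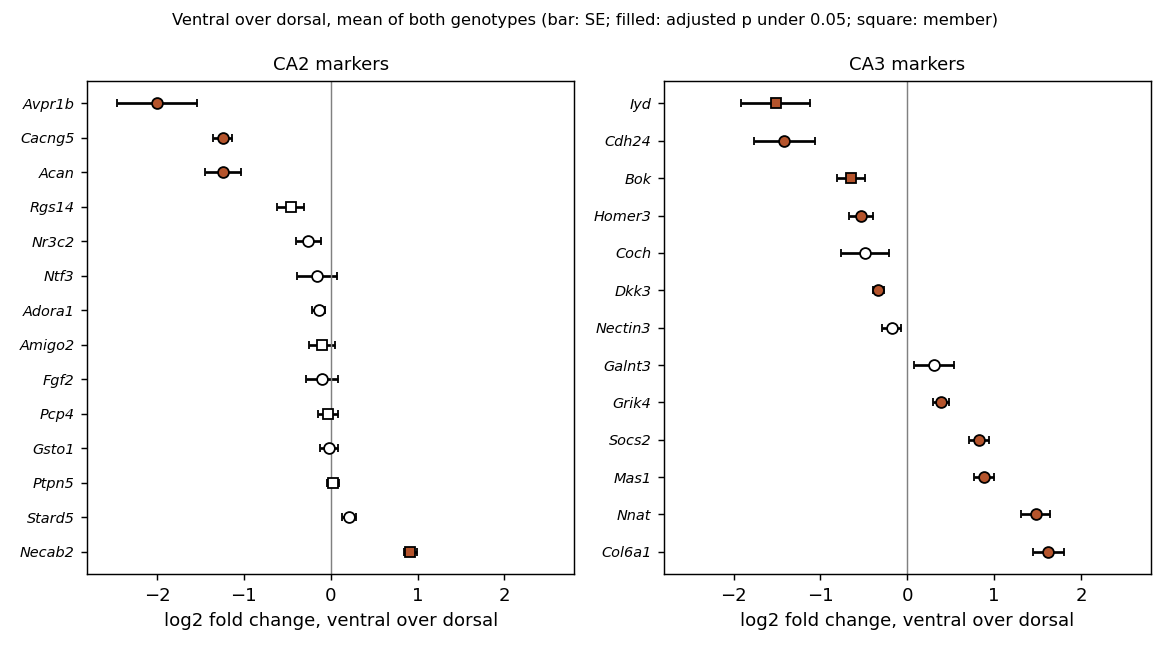
Log2 fold change of ventral over dorsal hippocampus (x axis, mean of both genotypes, bars for the SE) for CA2 markers (left) and CA3 markers (right), with squares for the 7 tested members and filled points for an adjusted p under 0.05. Necab2 is the rightmost CA2 marker at 0.92, and Iyd the leftmost CA3 marker at -1.52.

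Relatives of the members were compared by family. Of 13 genes of the same families, such as Amigo1, Bax and Rgs12, 12 were tested and 1 was higher in the ventral hippocampus, with 0 lower, by edgeR's test. This was Necab1, a paralogue of Necab2, at 0.63 ± 0.13 (edgeR adjusted p = 0.00211). It rose in the same direction as Necab2. Over all genes 6.67% were higher and 7.43% lower. Between genotypes 0 of 11 tested passed in either region, with 1 dorsal and 0 ventral genes at an unadjusted p under 0.05 (4.9% and 7.23% of all genes).

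For each member the gene with the most similar profile over the 12 samples was taken, by the root mean square (RMS) difference of centred log2 CPM. For Necab2 it was Plcxd3, at an RMS difference of 0.14 beside a median of 0.53 over all genes. Plcxd3 was at 16.3 ± 1.92, 16.7 ± 0.738, 37.3 ± 0.912 and 28.9 ± 2.07 CPM in dorsal control, dorsal cKO, ventral control and ventral cKO (SD, n = 3). For Rgs14 it was Zfp266 (0.16 beside a median of 0.54) and for Bok it was Dock10 (0.23 beside 0.56), which is also on the list of dentate granule cell markers. Dock10 was at 46.4 ± 0.459, 55.8 ± 6.48, 29.5 ± 7.24 and 30.8 ± 4.59 CPM in the same order of groups. For Iyd it was Cd109 (0.39 beside 0.87), for Amigo2 Drd5 (0.13 beside 0.34), for Pcp4 Prkacb (0.10 beside 0.31) and for Ptpn5 Scrn1 (0.04 beside 0.25). Members with little spread of their own have near neighbours for that reason alone, and Ptpn5 itself had an RMS of 0.10.

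Markers of neighbouring cells and tissue also differed between samples. Between regions 6.67% of all genes passed as higher and 7.43% as lower in the ventral hippocampus, beside which the counts here stand. CA1 markers summed to 913.5 to 1263 CPM in the dorsal and 1074 to 1367 CPM in the ventral samples. Of the 8 CA1 markers 3 were higher and 2 lower in the ventral hippocampus by edgeR's test, with a median log2 fold change of -0.04, and Fibcd1 had the lowest p, at 0.81 ± 0.09. Thalamus markers summed to 169.6 to 217 CPM in the dorsal and 96.3 to 143 CPM in the ventral samples, and 4 of 9 passed as lower by edgeR's test, led by Plekhg1 at -1.38 ± 0.13. The striatum sum was 99.1 to 139.6 CPM dorsally and 103 to 138 CPM ventrally, with 1 of 6 tested markers higher (Drd1, 0.78 ± 0.19), and the interneuron sum 766 to 972 and 753 to 961 CPM. Of 8 interneuron markers Pvalb alone passed between regions, as lower (-0.46 ± 0.09), while 5 of 8 had positive values and the median was 0.07. In the dorsal hippocampus the interneuron sum was 883 to 972 CPM in the controls and 766 to 879 CPM in cKO, without overlap. There 0 of 8 passed by edgeR's test, 4 of 8 had an unadjusted p under 0.05 (4.9% of all genes) and 7 of 8 were lower in cKO. Of 9 dentate markers 2 were lower and 0 higher, with a median of -0.05, and the lowest p was that of Lct (-2.01 ± 0.22). Habenula markers summed to 2.83 to 5.85 CPM in all samples (Tac2 at 0.43 ± 0.26), and Pou4f1, a defining habenula gene, was at 0 in all ventral cKO samples. Of the 5 habenula markers 2 were tested between the ventral genotypes. Both had higher fitted values in cKO (median log2 fold change 0.27), and 0 passed by edgeR's test. The part of these cells and tissues in the differences of the members was not tested.

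Choroid plexus markers had different summed levels in the ventral genotypes, but 0 of 8 passed by edgeR's test there, with 6 of 8 at an unadjusted p under 0.05 (7.23% of all genes), all 8 lower in cKO and a median log2 fold change of -1.80. They summed to 4179, 4502 and 3250.0 CPM in ventral controls 41, 49 and 50 and to 210.4, 2590.5 and 173 CPM in ventral cKO 40, 63 and 64. In the dorsal samples the sums were 441, 4888 and 270.1 CPM (controls) and 451, 369 and 3027 CPM (cKO). The choroid gene with the lowest p between regions was Prlr at 1.24 ± 0.53 (edgeR adjusted p = 0.135). All ventral controls were above all ventral cKO samples, as for Necab2, and the part of this tissue in the ventral values of the members was not tested. The position of the ventral cKO samples on the first principal component and their genotype cannot be told apart either.

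**Figure D5:**
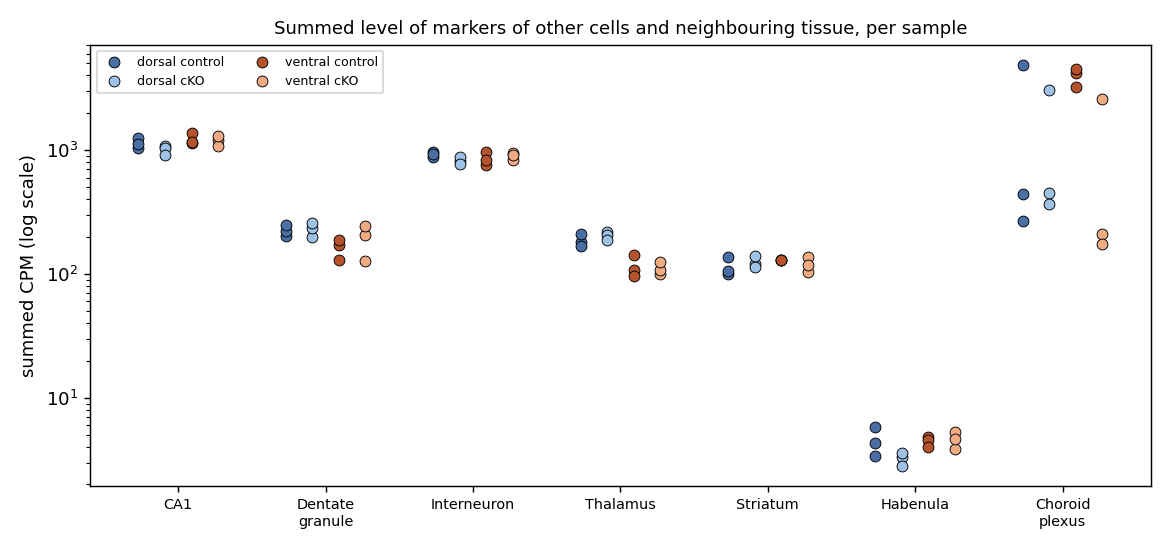
Summed CPM of marker lists (y axis, log scale) for other cells and neighbouring tissue (x axis), with a point per sample coloured by group. The thalamus sum is lower in all ventral samples (96.3 to 143 CPM) than in the dorsal ones, and the choroid plexus sum spans 173 to 4888 CPM.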

How the data were processed

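RNA of 12 samples was measured by 3′ tag sequencing of libraries made from 500 ng of total RNA, per the labels' protocols. Per the submitters' processing notes the tools were cutadapt, HISAT2, featureCounts and edgeR on GRCm38. Versions, annotation release and strand setting are not given in the sources used here. The deposited tables give a whole-number count per gene and run for each region. They also hold a signal per gene and run that the authors scaled to library size, which was not used. Per the file headers the authors' own comparison gives the log2 fold change, mean log2 CPM, a likelihood ratio score, a p-value, a false discovery rate and a mark of direction.

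Counts were summed over the runs of a sample (3, or 2 for dorsal cKO 64), giving between 5.12 and 15.9 M in a sample and between 1.07 and 7.17 M in a run. Pairs of samples within a group differed by a chi-square of 3.71 to 9.03 per gene, more than sampling noise. Genotype was tested per region, and region and interaction in 1 fit of all 12 samples over genes in both tables. Tests were edgeR's quasi-likelihood F-tests (edgeR 4.0.16, R 4.3.3) with TMM scaling, filterByExpr and Benjamini-Hochberg adjustment at 0.05 over all genes tested, checked on simulated data. CPM of a sample are counts scaled to the TMM-adjusted sample total, and CPM of a run use the unadjusted run total. Levels of a sample and of a run are therefore on different scales. Levels of different genes, read as 3′ tags, were not compared. Similar profiles used log2 CPM with a prior count of 3. Alternatives were DESeq2 1.42.0, voom of limma 3.58.1, other scalings and filters, single runs, a replicate block and each sample left out. Exact permutation of 3 against 3 samples reaches p = 0.10 at best and was not used. Of the identifiers in both tables, 26747 (99.85%) were found in GENCODE M21, which gave the coordinates. RefSeq windows were found for 6 of 8 members.

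The members and gene lists were chosen with earlier results of these data known. Genes named besides the members were Tet3, the 2 lowest p of the other CA2 and CA3 lists in the dorsal genotype, ventral genotype and region comparisons, the lowest p of each other list between regions, and the nearest profile of each member. Exceptions are stated beside the gene. A gene that this rule names is not reported here.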

Additional observations from a re-analysis of the deposited data

Results flagged for a closer look

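For Rgs14 and Necab2 every cKO sample lay on one side of the control mean dorsally and on the other side ventrally. The share of all genes that meet this rule was not counted, so these members cannot be set against it. For Rgs14 the genotype difference on the log2 scale was -0.28 dorsally and 0.60 ventrally, a difference of 0.88 ± 0.31 (edgeR's interaction contrast, Benjamini-Hochberg adjusted p = 0.487). For Necab2 it was 0.22 and -0.24, a difference of -0.46 ± 0.16 (edgeR's interaction contrast, adjusted p = 0.482). Neither passed across all genes. With single samples left out the Rgs14 value was 0.61 to 1.11 and the Necab2 value -0.53 to -0.40. Beyond leaving out each sample in turn, no test for outlying samples was run within the groups of 3.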

How the results depend on the processing

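Necab2 kept its 3 calls between regions under every alternative run. Without a low-count filter edgeR called 94 dorsal, 302 ventral and 13 interaction genes, with 1 member in the dorsal comparison (Bok), 1 in the ventral comparison (Rgs14) and 3 between regions in cKO. DESeq2 called 22, 9 and 34 genes, and 2 members between regions in cKO. Run 1 alone gave 1 dorsal and 3 ventral genes, and 1149 between regions, 675 in the controls and 423 in cKO. The cause of these shifts was not tested.

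Leaving out single samples gave 0 to 25 dorsal genes (25 without control 49), 0 to 55 ventral genes (55 without cKO 63) and 0 to 4 interaction genes. Between regions it gave 1838 to 2261 genes with 2 to 4 members, in the controls 794 to 1292 with 1 to 4 members, and in cKO 644 to 1067 with 1 to 3 members.

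The replicate block, pairing dorsal and ventral samples of the same number, gave 1411 genes between regions, 643 in the controls and 513 in cKO. Dorsal samples 43 and 71 and ventral samples 50 and 63 have no partner in the other region and add nothing to its estimates. These rest on numbers 40, 41, 49 and 64, so effects of pairing and of losing the unpaired samples cannot be told apart. Deviations of same-numbered samples correlated at 0.035 (40), 0.106 (41), 0.076 (49) and -0.107 (64), and dorsal samples 41 and 49 correlated best with their own number while 40 and 64 did not. The genotype groups of a region share no numbers. With the block Rgs14 between regions was -0.17 (edgeR adjusted p = 0.274) and in the controls -0.51 (adjusted p = 0.0306), and the Iyd call between regions was lost (-1.23, adjusted p = 0.0574). With number as a random effect, and without a low-count filter, Rgs14 between regions passed (adjusted p = 0.0385 and 0.0176). The sign changed for Rgs14 between regions in cKO (0.17), Amigo2 between regions (0.073), Ptpn5 between regions (-0.026), and the interactions of Amigo2 (0.0027), Pcp4 (0.0215), Bok (0.0695) and Ptpn5 (0.049).

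Other reversals follow, and not all were of small values. The Iyd interaction was -0.53 in the main fit and 0.48 without ventral control 49. Amigo2 in the dorsal comparison was 0.019 with limma-voom, 0.025 with total counts, 0.071 in run 1 and 0.10 in run 3, and between regions 0.0085 in run 3. Rgs14 between regions in cKO was 0.016 in run 3, Pcp4 between regions 0.016 and Ptpn5 between regions -0.042 in run 1. Ptpn5 in the dorsal comparison was 0.021 with total counts, its interaction 0.12 in run 3, and Tet3 in the ventral comparison -0.0499 in run 3. The Bok interaction was 0.10 with limma-voom, 0.18 in run 1 and 0.10 with number as a random effect. With single samples left out, Rgs14 between regions in cKO was -0.26 to 0.14. Amigo2 was -0.14 to 0.11 dorsally, -0.35 to 0.12 ventrally and -0.34 to 0.14 in the interaction. Pcp4 was -0.27 to 0.10 ventrally and -0.15 to 0.037 between regions. Ptpn5 was -0.083 to 0.037 dorsally, -0.095 to 0.058 ventrally, -0.034 to 0.0504 between regions and -0.0775 to 0.089 in the interaction. The interactions of Bok and Iyd were -0.40 to 0.28 and -1.12 to 0.48, and the ventral values of Tet3 and Nr3c2 -0.086 to 0.20 and -0.021 to 0.40. Depth limits Iyd, with 4 to 52 counts per sample, and Map3k15, with 0 to 5.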
